A study of Mus musculus with 6 samples.

Results

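Messenger RNA levels of 9 genes of pyruvate oxidation and the tricarboxylic acid (TCA) cycle were followed in the gastrocnemius, a calf muscle of mostly fast-twitch fibres. The genes, taken by name from the 55995 rows of the gene table, were Pdha1, Pdhb, Pdk2, Cs, Idh3a, Idh2, Ogdh, Sucla2 and Mdh2. All 9 were found once each and all 9 passed the filter of a mean of at least 1 TPM (a transcript level scaled for length and library total) over the 6 libraries. The muscle came from NOD/SCID/IL2Rγ-null (NSG) mice, which lack mature T, B and NK cells, and every mouse carried a subcutaneous left-flank xenograft of WT MDA-MB-231 cells, a human breast cancer line, grown with Matrigel. In the radiotherapy group (3 libraries) only the tumour was exposed, at a size of about 800 mm3, to 10 Gy (X-rays of 6 MV, with 6 Gy delivered per minute). The muscle, from the leg opposite the tumour, was collected 3 days after exposure. In the control group (3 libraries) the tumour was left untreated. The labels give no age or sex, no tumour size or collection day for the control mice, and no statement that each library came from its own mouse, so each p-value below reflects sample-to-sample spread that could be purely technical.

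The pyruvate dehydrogenase complex turns pyruvate, the end product of glycolysis, into acetyl-CoA inside the mitochondrion, and so sets how much carbohydrate carbon is burned. Its activity is switched off when pyruvate dehydrogenase kinases phosphorylate the alpha subunit and switched on again by phosphatases. Citrate synthase joins acetyl-CoA to oxaloacetate, and the cycle then passes through isocitrate, oxoglutarate, succinyl-CoA, succinate, fumarate and malate, giving NADH at the isocitrate, oxoglutarate and malate dehydrogenase steps, while the oxidation of succinate feeds electrons into the respiratory chain. In muscle these enzymes are richest in oxidative fibres and increase with endurance training.

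The labelled tissue matched its markers. Acta1 and Ckm, the actin and creatine kinase of skeletal muscle, were at 13130 TPM or more in every library, and 0 of the 6 muscle markers were absent. The libraries differed from one another in makeup. Radiotherapy replicate 3 stood apart: the summed level of 6 neutrophil markers was 2932 TPM there, against 10.8 and 17.97 TPM in radiotherapy replicates 1 and 2 and 72.8 to 182 TPM in control. Slow-fibre markers (9 genes) summed to 140 TPM in control replicate 2 and 337 TPM in radiotherapy replicate 3, against 1309 to 2272 TPM in the other libraries. Mitochondrial genome transcripts took 14.6% and 14.8% of the TPM in radiotherapy replicates 1 and 2, 8.57% in replicate 3 and 7.07% to 13.1% in control. Of the lists of other cell types, smooth muscle markers (4 genes) were the one whose sums did not overlap. They were at 54.4 to 85.5 TPM in control muscle and 93.3 to 131 TPM in radiotherapy muscle. Of these genes 2 (Acta2 and Tagln) were above every control library in all 3 radiotherapy libraries, beside 1.73% of all features. The fibroblast and erythroid lists also held 2 such genes each, but their sums overlapped. The other smooth muscle markers, Myh11 (4.10 TPM) and Cnn1 (0.65 TPM), were lowest in radiotherapy replicate 3. The part of these cell types in the members' levels was not tested. Depth is unknown, since the values are TPM without counts. In a bulk sample fewer cells of a type and less RNA per cell cannot be told apart.

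The stretches of DNA just before the start of 3 members, Pdk2, Ogdh and Sucla2, are shown. They were picked because their log2 changes, radiotherapy minus control, were the lowest of the 9 members, none of which passed the test given below. RefSeq promoters on the mouse build GRCm38.p6 were matched for 8 of the 9 members, Idh3a being the exception, and the 250 bases before the most upstream listed start are printed 5′ to 3′ on the gene's strand. The expression table was made on another build, mm9 by the submitters' processing notes, so these positions belong to the RefSeq sequences only. Pdk2 lies at chr11:95041372-95041621 on the minus strand, Ogdh at chr11:6291347-6291596 on the plus strand and Sucla2 at chr14:73552536-73552785 on the plus strand. Capitals mark a match to the core of the NRF1 element.

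Pdk2: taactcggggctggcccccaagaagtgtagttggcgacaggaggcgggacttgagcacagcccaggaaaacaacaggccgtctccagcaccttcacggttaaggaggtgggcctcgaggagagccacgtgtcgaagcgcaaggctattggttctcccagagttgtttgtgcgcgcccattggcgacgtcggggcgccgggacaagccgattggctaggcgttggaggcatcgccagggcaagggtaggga

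Ogdh: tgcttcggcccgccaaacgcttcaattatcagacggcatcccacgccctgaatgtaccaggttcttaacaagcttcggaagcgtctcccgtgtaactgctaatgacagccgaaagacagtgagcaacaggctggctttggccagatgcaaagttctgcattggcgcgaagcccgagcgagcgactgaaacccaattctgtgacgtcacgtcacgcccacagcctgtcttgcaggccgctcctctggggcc

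Sucla2: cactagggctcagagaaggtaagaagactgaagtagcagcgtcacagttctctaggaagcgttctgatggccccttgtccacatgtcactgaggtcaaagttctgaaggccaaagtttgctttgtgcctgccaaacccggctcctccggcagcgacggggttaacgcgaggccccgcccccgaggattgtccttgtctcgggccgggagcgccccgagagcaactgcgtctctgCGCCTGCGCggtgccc

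Motifs of 3 factors known for mitochondrial genes were searched on both strands: the estrogen-related receptor core AAGGTCA, the core GCGCANGCG of the NRF1 element and the ETS element CCGGAAG bound by GABP. Sucla2 held the NRF1 core on the opposite strand, read along the gene as CGCCTGCGC, 16 to 8 bases before its start. It was the only match in the printed stretches, so no motifs overlapped there. Counting every listed start, 2 of the 8 matched members had the NRF1 core (Sucla2, and Ogdh at starts not printed), 0 the estrogen-related receptor core and 0 the ETS element. The Ogdh matches were the same site seen in overlapping windows. Over 27025 genes with such windows the shares were 5.86%, 4.7% and 7.83%. The 8 members had 14 windows, against 32851 windows for the 27025 genes, so more starts were searched per member. At the most upstream start the NRF1 core was found in 1 of the 8. A match is a description of letters and says nothing of binding.

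All 9 members had lower mean TPM in the radiotherapy muscles, and none passed the test. By limma on log2(TPM + 1), 0 of 9 were called at an adjusted p under 0.05, beside 0.0168% of 11938 features called lower and 0.0419% called higher. At an unadjusted p under 0.05, 2 members were lower (Pdk2 and Ogdh) and 0 higher, beside 13.3% and 1.18% of all features. In 5 members, Pdha1, Pdk2, Cs, Ogdh and Sucla2, all 3 radiotherapy libraries lay below every control library, beside 19.3% of all features, and in 0 they lay above, beside 1.73%. Log2 changes are radiotherapy minus control throughout. The median over the members was -0.45, beside -0.36 over all features, 78.5% of which had a change below 0. Read against that shift, 5 members lay below the median of all features and 4 above it. The shift itself depends on scaling: with median-of-ratios scaling the median of all features was -0.02, the changes of Cs, Idh3a, Mdh2 and Pdhb turned to above 0, and only Ogdh kept its groups apart, beside 9.95% of all features. Rescaling on the genes left after the mitochondrial and the 20 most abundant ones kept 2 apart, Ogdh and Pdk2, beside 16.5%.

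Summed over the 9 genes, the level was 1908, 1815 and 1896 TPM in control libraries 1, 2 and 3 against 1453, 1443 and 1275 TPM in radiotherapy libraries 1, 2 and 3. Every radiotherapy sum lay below every control sum on the TPM scale. With median-of-ratios scaling the sums were 1435, 1709 and 1713 in control and 1872, 1995 and 1119 in radiotherapy muscle, so that replicates 1 and 2 lay above every control library and replicate 3 below. With the other rescaling the groups overlapped as well, at 1560 to 1950 and 1063 to 1825. Radiotherapy replicate 3 was the lowest of the 6 libraries in 5 members (Pdha1, Pdhb, Cs, Idh3a and Mdh2), beside 14.7% of all features, and the highest in 1 (Idh2), beside 30.0% of all features.

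**Figure D1:**
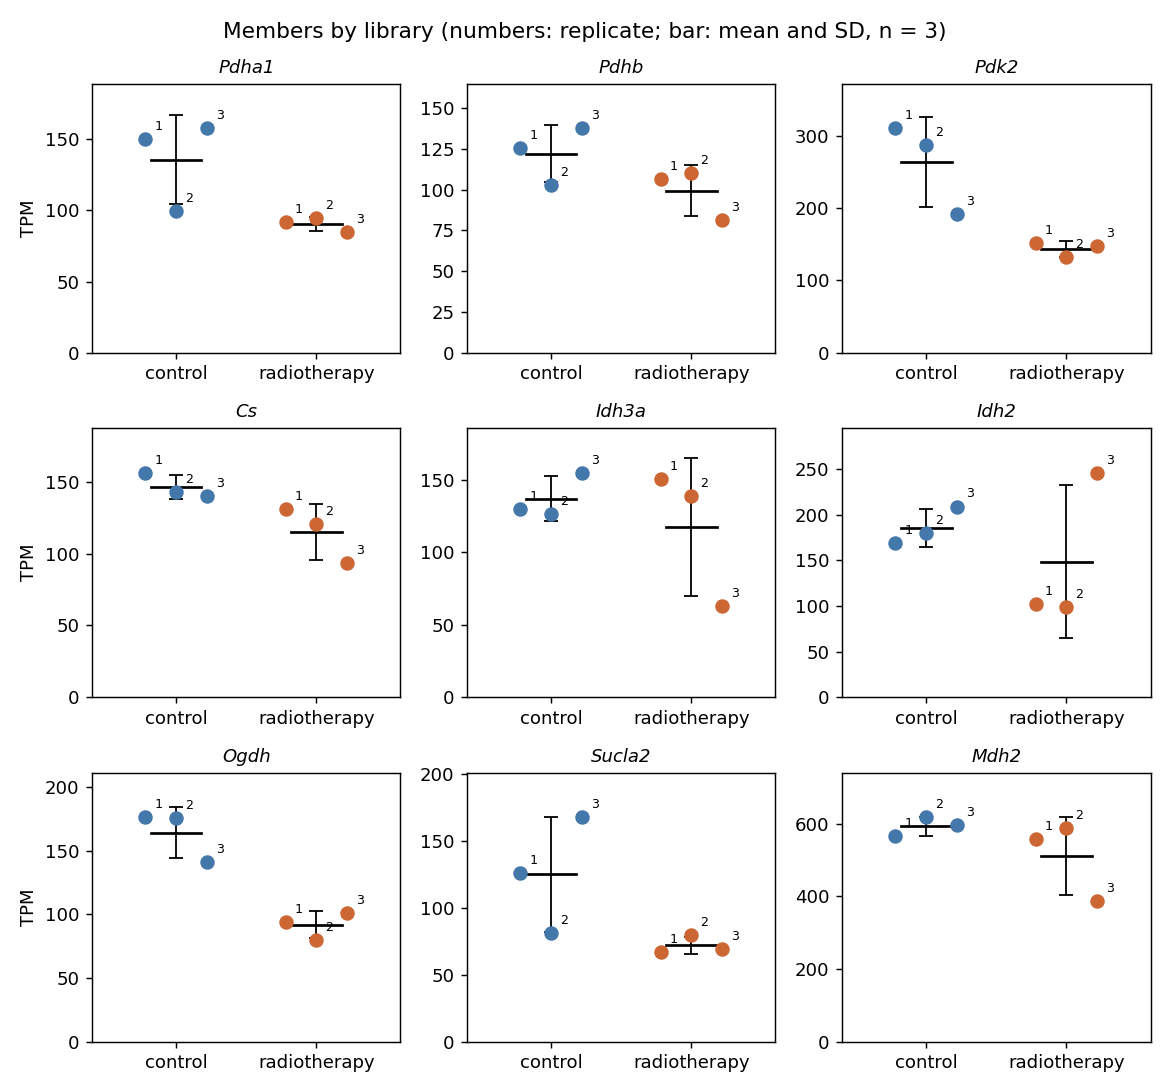
TPM of each of the 9 members (y axis, starting at 0) in the 3 control libraries (blue) and the 3 radiotherapy libraries (orange), with the replicate number beside each point and the mean and SD as a bar. The groups stand apart for Pdha1, Pdk2, Cs, Ogdh and Sucla2, and radiotherapy replicate 3 lies far from its group for Idh3a (63.1 TPM) and Idh2 (246 TPM).

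Of the 3 members that belong to the pyruvate dehydrogenase system, the kinase Pdk2 had the lowest log2 change. Pdk2, the kinase isoform found in most tissues, was at 311, 288 and 193 TPM in control libraries 1, 2 and 3 against 152, 132 and 148 TPM in radiotherapy libraries 1, 2 and 3. The groups did not overlap, and control replicate 3 lay nearest to the radiotherapy libraries. The means were 264 ± 62.6 and 144 ± 10.6 TPM (SD, n = 3 per group), with a log2 change of -0.84 (SE 0.28) and an adjusted p of 0.306 by limma. The change was -0.48 relative to the median of all features.

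Pdha1 encodes the alpha subunit that the kinases phosphorylate. It was at 149.9, 99.8 and 158 TPM in the controls against 92.0, 94.7 and 84.8 TPM in radiotherapy muscle. The radiotherapy libraries were close together, and control replicate 2, which had the lowest slow-fibre marker sum, lay only just above them. The log2 change was -0.55 (SE 0.28, limma adjusted p = 0.396), and it went to -0.76 without control replicate 2. Pdhb, the beta subunit that pairs with it, was at 126, 103 and 138 TPM and at 106, 110.3 and 81.3 TPM. Here the groups overlapped, and radiotherapy replicate 3 was the lowest library. The Pdhb change of -0.30 (SE 0.27, limma adjusted p = 0.582) became 0.13 with median-of-ratios scaling.

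The other subunits of the complex were also lower in radiotherapy muscle. Dlat, the acetyltransferase core, was at 29.1, 27.2 and 27.0 TPM in the controls against 18.1, 17.2 and 15.7 TPM in radiotherapy muscle. Dld, the lipoamide dehydrogenase shared with the oxoglutarate complex, was at 55.1 to 77.4 and 36.7 to 43.8 TPM. Pdhx, which anchors Dld, was at 20.1 to 23.5 and 11.04 to 16.8 TPM. All 3 had groups that did not overlap, with log2 changes of -0.68, -0.70 and -0.65 and limma adjusted p-values of 0.318, 0.332 and 0.338. With median-of-ratios scaling the changes were -0.26, -0.28 and -0.25 (limma adjusted p = 0.751, 0.728 and 0.700). Counting Pdha1 and Pdhb, 0 of 5 subunits passed the test and 4 of 5 were lower in all 3 radiotherapy libraries, beside 19.3% of all features.

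The regulators were less even. Pdk4, the kinase induced by fasting and glucocorticoids, was at 116, 81.7 and 149.8 TPM in the controls against 8.60, 84.8 and 356 TPM in radiotherapy libraries 1, 2 and 3. Its lowest and highest libraries were thus both in the radiotherapy group, with a log2 change of -0.77 (SE 1.18, limma adjusted p = 0.747) that became 0.63 without radiotherapy replicate 1. Pdpr, the regulatory subunit of the phosphatase, was at 7.32, 1.63 and 5.65 TPM in the controls against 0.47, 0.28 and 1.10 TPM in radiotherapy muscle, a log2 change of -1.73 (SE 0.47, limma adjusted p = 0.279) at a low level. The catalytic phosphatase Pdp1 was at 10.2 to 20.7 and 10.7 to 16.4 TPM and the kinase Pdk1 at 2.0 to 5.42 and 2.78 to 3.38 TPM, both with overlapping groups. Of the 7 listed kinases and phosphatases, Pdk3 and Pdp2 were too low to be tested and 0 of the other 5 passed.

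Pyruvate reaches the complex through the mitochondrial carrier formed by Mpc1 and Mpc2. Mpc1 was at 538, 495 and 518 TPM in the controls against 289.6, 307 and 329.9 TPM in radiotherapy muscle. On the TPM scale all its radiotherapy libraries lay below the controls, as in 19.3% of all features (log2 change -0.74, SE 0.23, limma adjusted p = 0.298). With median-of-ratios scaling the Mpc1 change was -0.31 (limma adjusted p = 0.707). Mpc2 was at 237 to 249 TPM in the controls against 214, 190.5 and 114 TPM in radiotherapy libraries 1, 2 and 3, lowest in replicate 3. Pcx, pyruvate carboxylase, which makes oxaloacetate from pyruvate, had a higher mean in radiotherapy muscle. It was at 22.9, 21.8 and 18.8 TPM in the controls against 107, 97.6 and 21.0 TPM in radiotherapy libraries 1, 2 and 3, so that replicate 3 lay inside the control range. Its log2 change was 1.48 (SE 0.61, limma adjusted p = 0.339), and without radiotherapy replicate 3 it was 2.23 (SE 0.17, adjusted p = 0.0103, with a range of 0.0103 to 0.765 over the settings tried). Pcx is abundant in fat. The 7 adipocyte markers summed to 327, 172 and 227 TPM in radiotherapy libraries 1, 2 and 3 and 54.6 to 432 TPM in control. Most of each sum was Cfd (288, 154 and 206 TPM in the radiotherapy libraries). Among these libraries Cidec and Retn, like the sum, were lowest in replicate 2. Adipoq (11.4, 4.21 and 1.65 TPM) and Plin1 (2.99, 0.72 and 0.30 TPM) were lowest in replicate 3. Tendon markers (7 genes, 3 of them with a mean of at least 1 TPM) summed to 55.9, 43.7 and 8.80 TPM in radiotherapy libraries 1, 2 and 3. In control they summed to 8.23 to 18.8 TPM. Schwann cell markers (4 genes) summed to 109, 135 and 8.04 TPM in the same order and 13.6 to 95.7 TPM in control. The part of any of these cell types in the Pcx level was not tested.

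Citrate synthase, Cs, whose activity is a common measure of mitochondrial content, was at 156, 143 and 140.2 TPM in the controls against 131, 121 and 93.7 TPM in radiotherapy muscle. All radiotherapy libraries were lower, with replicate 3 the lowest. The log2 change of -0.36 (SE 0.26, limma adjusted p = 0.512) equalled the median of all features to within 0.01, and it was 0.07 with median-of-ratios scaling.

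Both isocitrate dehydrogenases among the members split the radiotherapy group, in opposite directions. Idh3a, the catalytic subunit of the NAD-dependent enzyme of the cycle, was at 130.1, 126 and 155 TPM in the controls against 151, 139 and 63.1 TPM in radiotherapy libraries 1, 2 and 3. Replicates 1 and 2 lay inside the control range, while replicate 3 was below every other library. Its log2 change of -0.31 (SE 0.38, limma adjusted p = 0.685) became 0.08 without replicate 3. Idh2, the NADP-dependent mitochondrial enzyme, which supplies NADPH to antioxidant systems, was at 169, 181 and 209 TPM in the controls against 102, 98.7 and 246 TPM in radiotherapy libraries 1, 2 and 3. Here replicates 1 and 2 lay below every control library and replicate 3 above every one. The Idh2 change was -0.45 (SE 0.40, limma adjusted p = 0.572) and, without replicate 3, -0.88 (SE 0.17, adjusted p = 0.0216, with a range of 0.0216 to 0.985 over the settings tried). That change was past the threshold in that setting only, in which 27.6% of all features were called lower.

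The partner subunits of Idh3a did not share its split. Idh3b was at 403 to 508 TPM in the controls against 311, 332 and 295 TPM in radiotherapy libraries 1, 2 and 3. Idh3g was at 317 to 335 TPM in the controls against 276, 254 and 228 TPM in the same order. Replicate 3 was the lowest for both, but close to its group. Both were lower in all 3 radiotherapy libraries, beside 19.3% of all features (limma adjusted p = 0.348 and 0.465). The Idh3g change of -0.36 equalled the median of all features. With median-of-ratios scaling the changes were -0.12 for Idh3b and 0.065 for Idh3g.

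Ogdh, the dehydrogenase component of the oxoglutarate complex, had the smallest p of the members. It was at 176, 175 and 141 TPM in the controls against 94.2, 80.2 and 101 TPM in radiotherapy muscle. The highest radiotherapy library, replicate 3, was still well below the lowest control library. The means were 164 ± 20.2 and 91.8 ± 10.6 TPM (SD, n = 3 per group), a log2 change of -0.83 (SE 0.26, limma adjusted p = 0.300) or -0.47 relative to the median of all features. With median-of-ratios scaling the change was -0.40 and the groups still did not overlap. Without radiotherapy replicate 3 its adjusted p was 0.0240, with a range of 0.0240 to 0.756 over the settings tried. Dlst, the succinyltransferase of the same complex, was at 78.1 to 89.1 TPM in the controls against 67.0, 65.5 and 80.1 TPM in radiotherapy libraries 1, 2 and 3. The Dlst groups overlapped through replicate 3, and its log2 change was -0.26 (SE 0.25). Ogdhl, the related dehydrogenase of brain, was too low to be tested, at 0.42 TPM at most.

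Sucla2, the subunit that makes the succinyl-CoA ligase use ADP, was at 126, 81.2 and 167 TPM in the controls against 67.1, 79.3 and 69.2 TPM in radiotherapy muscle. The groups did not overlap, but by little, since control replicate 2 lay next to radiotherapy replicate 2. Relative to its mean this member varied most among the control libraries, with a mean of 125 ± 43.0 TPM (SD, n = 3) and a coefficient of variation of 34.5%. Its control order, replicate 2 lowest and replicate 3 highest, was also that of Pdha1, Pdhb, Idh3a and the slow-fibre marker sum (1383, 140 and 1825 TPM). The other members, Pdk2, Cs, Idh2, Ogdh and Mdh2, did not have that order. In radiotherapy muscle the slow-fibre sum was lowest in replicate 3 (337 TPM). So were Pdha1 (84.8 TPM), Pdhb (81.3 TPM) and Idh3a (63.1 TPM), and also Cs and Mdh2, which did not have the control order. Within that group Sucla2 was lowest in replicate 1, and Pdk2, Idh2 and Ogdh in replicate 2. The part of fibre type in these levels was not tested. The log2 change of Sucla2 was -0.73 (SE 0.33, limma adjusted p = 0.358), and -1.01 without control replicate 2. Suclg1, the subunit common to both ligases, was at 155 to 183 TPM in the controls against 144, 163 and 79.0 TPM in radiotherapy libraries 1, 2 and 3. Suclg2, which makes the ligase use GDP, was at 7.91 to 9.05 and 5.57 to 6.71 TPM, with groups apart at a level far below that of Sucla2.

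Succinate dehydrogenase, which is also complex II of the respiratory chain, was not uniform. Sdha, the flavoprotein that oxidises succinate, was at 140.4, 112 and 149 TPM in the controls against 68.9, 67.3 and 77.0 TPM in radiotherapy muscle, with a gap between the groups and the smallest p of the subunits (log2 change -0.90, SE 0.26, limma adjusted p = 0.288). With median-of-ratios scaling the Sdha change was -0.47 (limma adjusted p = 0.581). Sdhd, a membrane anchor, was at 132 to 175 and 86.1 to 121 TPM. Sdhc, the other anchor, was at 99.9 to 145 and 89.9 to 152 TPM and Sdhb, the iron-sulfur subunit, at 368 to 482 and 265 to 411 TPM, both with overlapping groups and log2 changes of 0.037 and -0.22. The assembly factor Sdhaf3 was at 2.89 to 3.40 and 1.41 to 2.18 TPM. Of 8 subunits and assembly factors, 0 passed the test, 4 were lower in all 3 radiotherapy libraries, beside 19.3% of all features, and 7 had a change below 0, beside 78.5%.

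Mdh2, the mitochondrial malate dehydrogenase that closes the cycle, was the most abundant member. It was at 565, 617 and 596 TPM in the controls against 558, 588 and 388 TPM in radiotherapy libraries 1, 2 and 3. Replicates 1 and 2 were at or near the control range, and only replicate 3 was clearly below. The log2 change was -0.24 (SE 0.26, limma adjusted p = 0.649), -0.05 without replicate 3 and 0.19 with median-of-ratios scaling. Fh1, fumarase, was at 140.5, 196 and 171 TPM in the controls against 165, 191 and 135 TPM in radiotherapy muscle, a log2 change of -0.05 (SE 0.28). Its groups overlapped fully apart from replicate 3, again the lowest library.

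Cytosolic and supporting genes were mostly lower in mean level as well, and none passed the test. Mdh1, the cytosolic malate dehydrogenase, was at 166 to 192 TPM in the controls against 92.5 to 127 TPM in radiotherapy muscle (log2 change -0.65, SE 0.26). Glud1, glutamate dehydrogenase, was at 23.2 to 32.7 and 14.1 to 22.04 TPM, and Got1, the cytosolic aspartate aminotransferase, at 124 to 203 and 60.0 to 136 TPM. These belong to a list of 10 genes, of which 10 had a change below 0, beside 78.5% of all features. In 4 of the 10 the groups did not overlap, beside 19.3%. With median-of-ratios scaling the changes of Mdh1, Glud1 and Got1 were -0.22, -0.28 and -0.34, and Aco1, Got2, Me2 and Me3 of that list were above 0. Lipoic acid is the cofactor bound to Dlat and Dlst. Lias, which makes it, was at 19.9 to 22.2 and 11.7 to 15.1 TPM, and Lipt1, which attaches it, at 4.96 to 5.96 and 2.68 to 3.33 TPM. Lipt2, the octanoyl transferase of the same route, was at 2.52 to 2.82 TPM in the controls against 2.02 to 3.89 TPM in radiotherapy muscle.

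Over the wider pathway, 40 genes beside the 9 members were counted and 37 of them were tested. By limma 0 passed as lower and 0 as higher, and at an unadjusted p under 0.05, 10 were lower and 1, Pcx, was higher, beside 13.3% and 1.18% of all features. In 19 of the 37 all 3 radiotherapy libraries lay below every control library, beside 19.3% of all features, and with median-of-ratios scaling in 4, beside 9.95%. The median log2 change of the 37 was -0.44, beside -0.36 over all features, and 34 had a change below 0, beside 78.5%. Radiotherapy replicate 3 was the lowest of the 6 libraries in 15, beside 14.7% of all features. It was the highest in 3, Pdk4, Aco1 and Me2, beside 30.0% of all features.

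**Figure D2:**
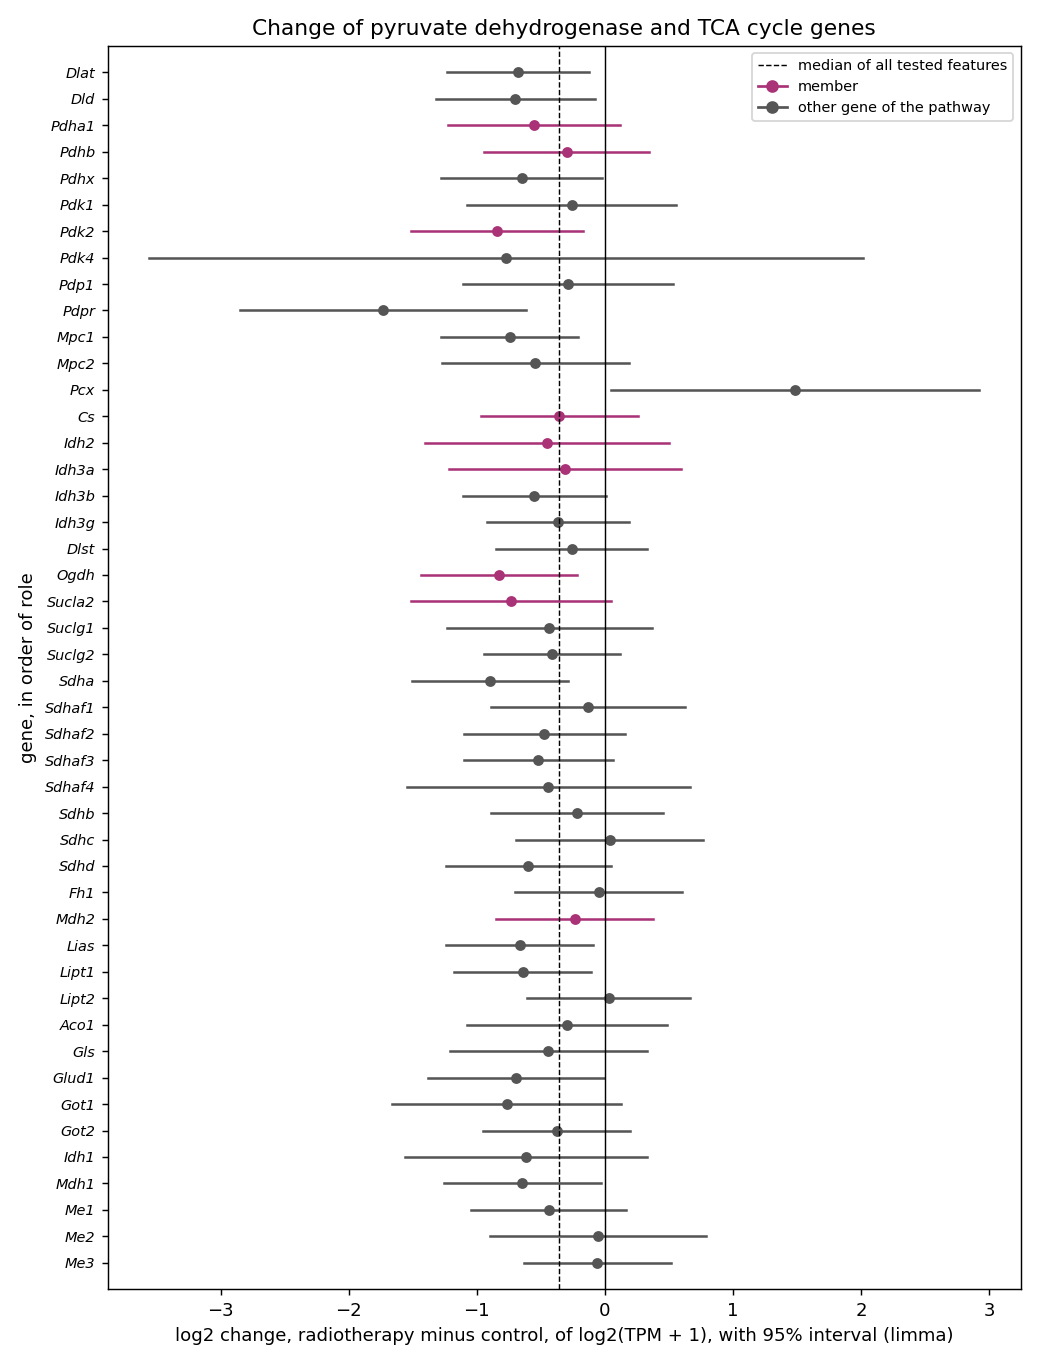
Log2 change of each tested pathway gene (x axis, radiotherapy minus control on the log2(TPM + 1) scale) with the 95% interval from limma, members in purple and other genes in grey, ordered by role along the y axis. Most points lie between 0 and -1, near the median of all features (-0.36, dashed), while Pcx (1.48) lies above 0 and Pdpr (-1.73) is the lowest.

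**Figure D3:**
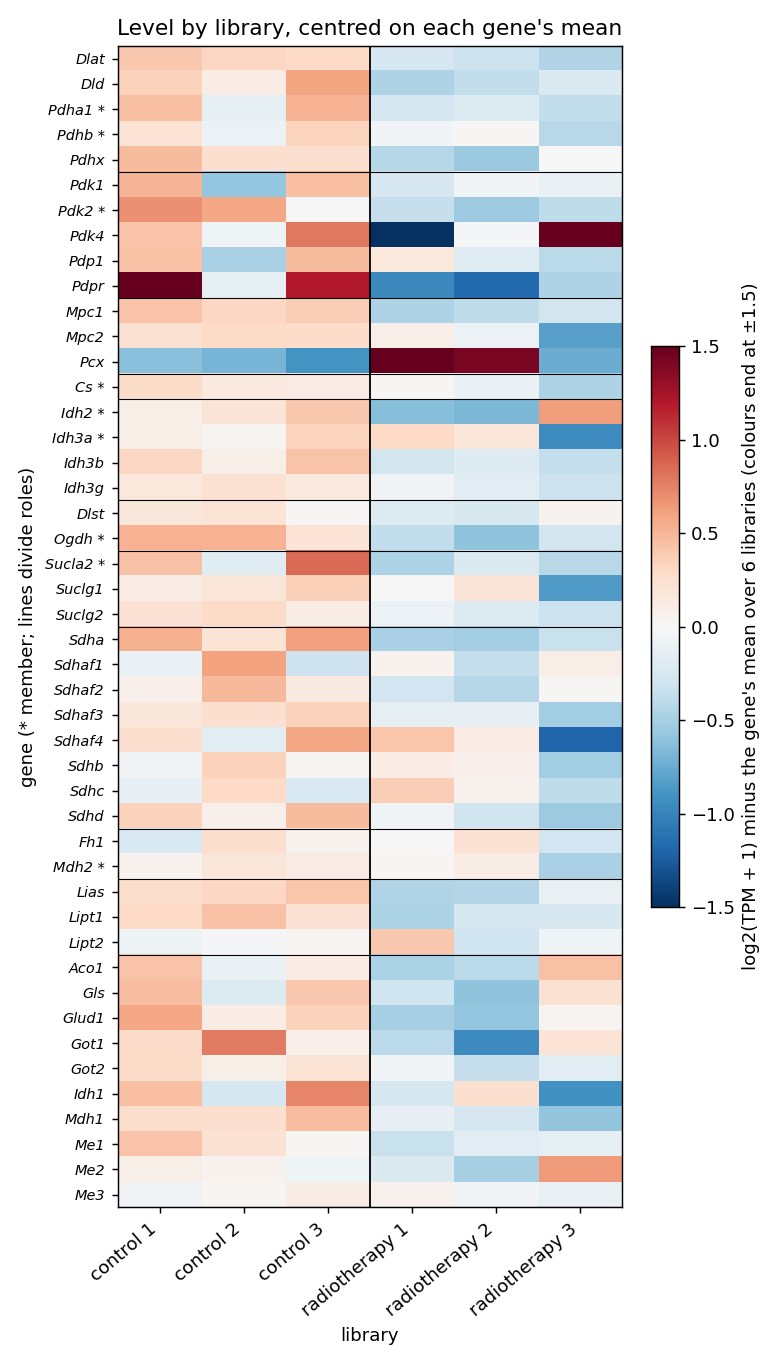
Log2(TPM + 1) of each tested pathway gene (rows, by role, members starred) in each of the 6 libraries (columns), centred on the gene's mean, with red above and blue below it. Radiotherapy replicate 3 differs from replicates 1 and 2 in Pcx, Idh2, Idh3a, Pdk4 and Sdhaf4.

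Ratios between partner transcripts in a library do not depend on how the library is scaled. Of 9 ratios computed, 1 had groups that did not overlap. The ratio of Mdh2 to Mdh1, the mitochondrial over the cytosolic malate dehydrogenase, was 3.39, 3.72 and 3.10 in control and 4.38, 5.03 and 4.20 in radiotherapy muscle. It was higher in 3 of 3 radiotherapy libraries, by 0.41 on the log2 scale, with an exact two-sided permutation p of 0.1, the smallest that 3 against 3 allows, and 0.6 after Benjamini-Hochberg adjustment over the 9 ratios. The ratio of Idh2 to Idh3a was 1.30, 1.43 and 1.35 in control, a narrow range, and 0.676, 0.712 and 3.90 in radiotherapy replicates 1, 2 and 3. Replicates 1 and 2 thus lay below the control range and replicate 3 above it (exact permutation p = 1, log2 difference -0.14).

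Ogdh to Cs was 1.13, 1.23 and 1.00 in control and 0.718, 0.663 and 1.08 in radiotherapy replicates 1, 2 and 3, with replicate 3 inside the control range (log2 difference -0.48, exact permutation p = 0.2). Pdk4 to Pdk2 was 0.373, 0.284 and 0.777 in control and 0.0566, 0.643 and 2.41 in radiotherapy muscle, the widest spread of the ratios within the radiotherapy group. The ratio of Pdk2 to its substrate Pdha1 was 2.07, 2.89 and 1.22 in control and 1.65, 1.39 and 1.74 in radiotherapy muscle, where the control libraries spanned all the radiotherapy values. Pdhb to Pdha1 stayed near equality in every library, from 0.838 to 1.16. Dlat to Pdha1 was 0.171 to 0.273 in control and 0.182 to 0.197 in radiotherapy muscle, Pdp1 to Pdk2 0.0353 to 0.107 and 0.0728 to 0.108, and Sucla2 to Suclg2 8.98 to 21.1 and 10.00 to 12.9. The adjusted exact permutation p-values of the ratios ran from 0.6 to 1.

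**Figure D4:**
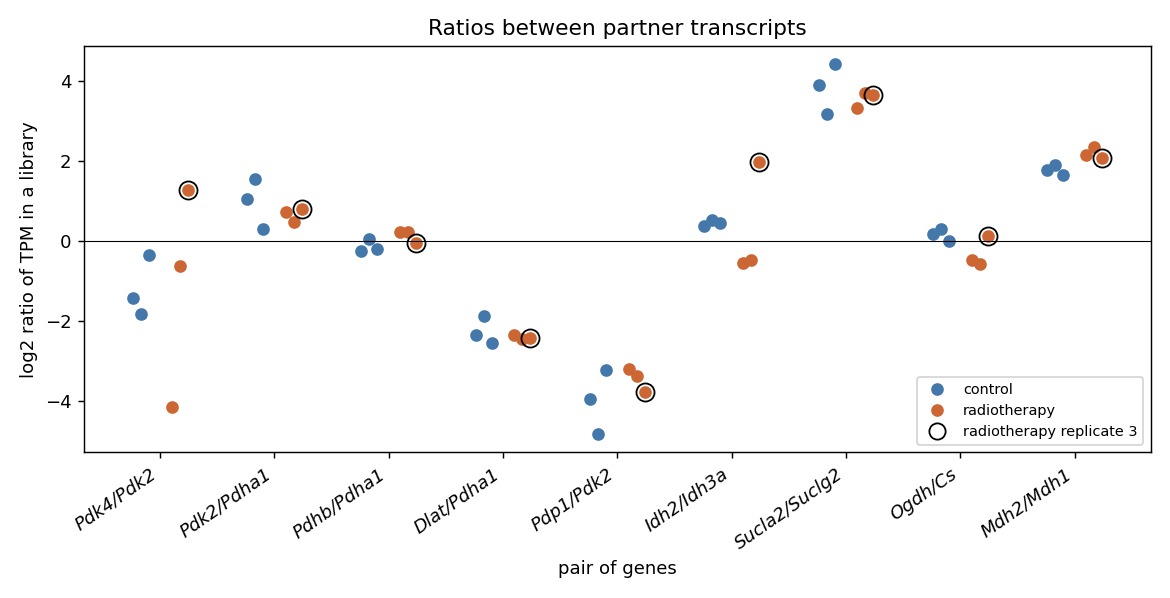
Log2 ratio of TPM between 9 pairs of genes (y axis) in each control library (blue) and radiotherapy library (orange), with radiotherapy replicate 3 circled. Mdh2/Mdh1 is the pair whose groups do not overlap, and Idh2/Idh3a has replicate 3 above and replicates 1 and 2 below the control libraries.

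Because TPM is scaled for length, levels can be compared between genes. In control muscle the order of the mean TPM was Mdh2 (593 ± 26.2), Pdk2 (264 ± 62.6), Idh2 (186 ± 20.8), Ogdh (164 ± 20.2), Cs (146 ± 8.57), Idh3a (137 ± 15.5), Pdha1 (136 ± 31.4), Sucla2 (125 ± 43.0) and Pdhb (122 ± 17.6, all SD, n = 3). Only Mdh2 was separate from its neighbour in that order, and each of the other neighbouring pairs overlapped. In radiotherapy muscle Mdh2 was again the highest (511 ± 108), followed by Idh2 (149 ± 84.2), Pdk2 (144 ± 10.6), Idh3a (117 ± 47.4), Cs (115 ± 19.4), Pdhb (99.4 ± 15.8), Ogdh (91.8 ± 10.6), Pdha1 (90.5 ± 5.15) and Sucla2 (71.9 ± 6.54). Mdh2 and Sucla2 were separate from their neighbours there and the rest overlapped. Ogdh went from the fourth place to the seventh. All 9 members were at or above the 92.5 percentile of mean level among the tested features.

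The mean profile of the members, centred per gene on the log2(TPM + 1) scale, was 0.31, 0.14 and 0.32 in control and -0.19, -0.23 and -0.35 in radiotherapy replicates 1, 2 and 3. The features whose levels followed it most closely over the 6 libraries, by Pearson's r, were Scrn3 (r = 0.998), Mfsd8 (0.996), Pptc7 (0.995), Ppp1r3a (0.995) and Syne1 (0.994). Pptc7 encodes a mitochondrial phosphatase, and Ppp1r3a, the muscle subunit that brings protein phosphatase to glycogen, was at 19.7 to 29.9 TPM in the controls against 8.31 to 10.3 TPM in radiotherapy muscle. With 6 libraries in 2 groups many features fit such a profile: 163 of 11938 reached an r of 0.95, so the 5 names are a description.

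Leaving out radiotherapy replicate 3 changed which members were called. Idh2 and Ogdh then passed as lower, 2 of 9 beside 27.6% of all features, and 0 passed as higher, beside 1.98%. Of the 37 other pathway genes 10 passed as lower and 1, Pcx, as higher. The median log2 change in that setting was -0.51 over the members and -0.57 over all features. The members' share of calls was thus not above that of all features.

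**Figure D5:**
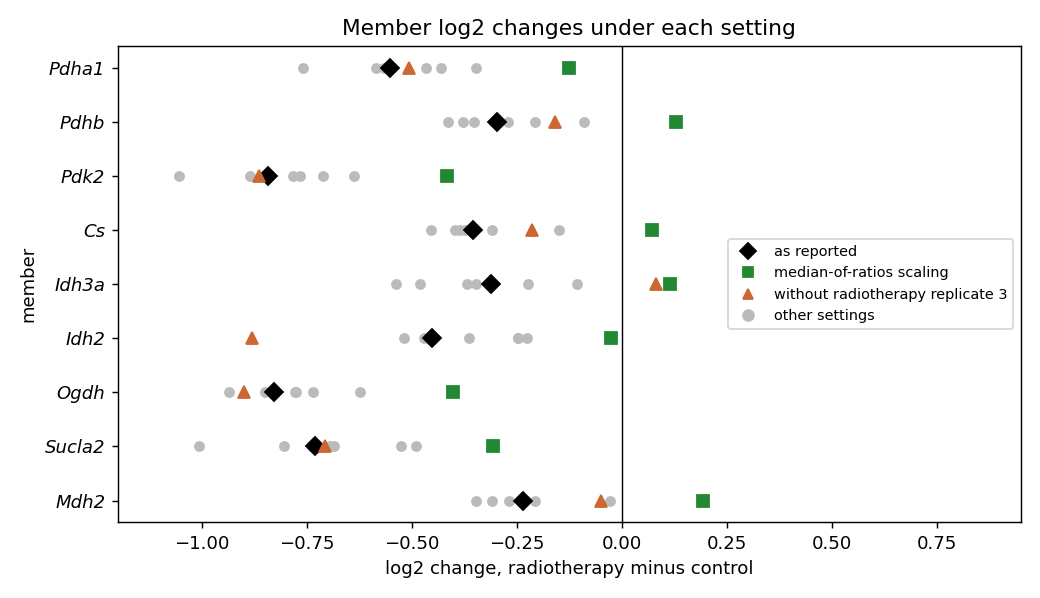
Log2 change of each member (x axis) as reported (black diamonds), with median-of-ratios scaling (green squares), without radiotherapy replicate 3 (orange triangles) and under the other settings tried (grey). Pdk2, Ogdh, Sucla2, Pdha1 and Idh2 stay below 0 in every setting, and Idh2 and Idh3a move furthest when replicate 3 is left out.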

How the data were processed

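Gastrocnemius RNA was made into libraries with a TruSeq kit, per the protocols in the labels. The authors deposited 1 table of TPM, with 6 columns that match the sample titles. HISAT2, StringTie and RSEM are named in the submitters' processing notes, without version or role, beside the build mm9. Which annotation was used is not stated there. TPM has a fixed total, so more of the most abundant transcripts means less of all others.

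Of 55995 features, the 11938 with a mean TPM of 1 or more were tested on log2(TPM + 1), two-sided, using limma 3.58.1 (R 4.3.3, empirical Bayes with a trend, no covariates). P-values were adjusted by Benjamini-Hochberg over all of them, with a threshold of 0.05. Fold changes on this scale understate changes of low genes. The model was tested on simulated data with independent errors, as many genes raised as lowered, and no shift over all features. These settings differ from the data, so that test does not give the error rate of the calls here. Partner ratios were compared by exact permutation (scipy 1.17.1). The members and lists were chosen with earlier results of these data known. Besides the members, the text names up to 3 genes of each role with the smallest unadjusted p, the genes of the ratios and the 5 features closest to the members' profile. Aco1, Me2, Sdhaf4, Sdhb, Sdhc, Pdk3, Pdp2 and Ogdhl were named after their values were seen, as were genes whose change turned sign under an alternative. The same holds for the named smooth muscle and adipocyte marker genes and for the tendon and Schwann cell sums. Another gene of the wider list is not reported here and was left out of its counts. Alternatives were other pseudocounts (0.1 and 0.5), other filters (a mean TPM of 5 or more, and none), 2 other scalings, a replicate block, and each library left out in turn. Counts of separated groups and summed levels under other settings were added after seeing the data.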

Additional observations from a re-analysis of the deposited data

How the results depend on the processing

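Pdha1, Pdk2, Idh2, Ogdh and Sucla2 had a log2 change below 0 in each of the 13 alternatives. The members' summed level, radiotherapy mean minus control mean, was -483 TPM as reported, 43.2 with median-of-ratios scaling and -218 with the rescaling below. Over all features, 5 were called higher and 2 lower as reported. Pseudocounts of 0.1 and 0.5 gave 5 and 3 lower, a mean TPM of 5 or more gave 1 lower, and no filter gave 0 in either direction. Median-of-ratios scaling gave 3 higher and 1 lower, and rescaling on the genes left after the mitochondrial and the 20 most abundant ones gave 4 lower. Leaving out 1 library gave 0 to 236 higher and 0 to 3298 lower, both largest without radiotherapy replicate 3. There, members called lower went from 0 to 2, and the wider list from 0 to 10 lower and 1 higher (0 without any other library). Without replicate 3, 27.6% of all features were called lower and 1.98% higher. Members with separated groups, all lower, went from 5 to 1 with median-of-ratios scaling and 2 with the other rescaling. The wider list went from 19 to 4 and 10. Over all features the shares lower were 19.3% as reported, 9.95% and 16.5%.

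With median-of-ratios scaling the log2 changes that turned sign were Aco1 0.018, Cs 0.072, Dlst 0.16, Fh1 0.38, Got2 0.052, Idh3a 0.11, Idh3g 0.065, Mdh2 0.19, Me2 0.13, Me3 0.37, Pdhb 0.13, Pdk1 0.085, Pdp1 0.12, Sdhaf1 0.25 and Sdhb 0.21, and with the other rescaling Fh1 0.16, Me2 0.018, Me3 0.15 and Sdhaf1 0.056. Leaving out single libraries turned the sign of some changes, which ran for Fh1 from -0.17 to 0.083, Idh3a from -0.54 to 0.082, Lipt2 from -0.16 to 0.19, Me2 from -0.38 to 0.18, Pdk4 from -1.98 to 0.63, Sdhaf1 from -0.32 to 0.14, Sdhaf4 from -0.76 to 0.049 and Sdhc from -0.14 to 0.24. It also turned some log2 ratios, which ran for Dlat to Pdha1 from -0.29 to 0.043, Idh2 to Idh3a from -0.97 to 0.29, Pdk4 to Pdk2 from -1.19 to 1.52 and Sucla2 to Suclg2 from -0.59 to 0.026. The cause was not tested.

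A fit with a replicate block called 4 features higher and 0 lower, and no member. Deviations of same-numbered libraries from their group means correlated at -0.045, -0.11 and -0.20 over the features. Differently numbered libraries ran from -0.088 to 0.18. With 3 libraries a group, deviations from a group mean are tied to one another, so these values cannot decide whether the numbers pair the libraries. Depth is unknown, and precision rests on 3 libraries a group.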
